A study of Xenopus laevis with 6 samples.

Results

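The globins and red cell genes are the 16 rows of the gene count table that carry a haemoglobin chain symbol of the form hba, hbb, hbd, hbe, hbg or hbz with a number, or the symbol gata1, alas2, epor or epb42. They are 16 of 42638 rows, of which 9 are globins and 7 are the other red cell genes, and klf1, the 1 other symbol looked for, had no row. The rule used their names and no measured value, but it was set with earlier results of these data known. Xenopus laevis is allotetraploid and many genes have an L and an S copy (homeologs), which are separate rows with those endings.

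RNA was measured in 3 pools of Xenobots and 3 pools of age-matched embryos, all wild type and with no treatment. A Xenobot is a self-moving body that forms from the ectodermal animal cap, the tissue on top of the blastula, cut from an embryo at stage 9 and left to heal in a frog saline (0.75X MMR) at 14 °C until day 7. The embryos were intact siblings grown in 0.1X of the same saline at 14 °C for 7 days, when they were at stage 35, so that the groups also differed in medium. Each Xenobot pool held 50 Xenobots and each Embryo pool held 10 embryos, so a value describes a pool and not 1 animal. The p-values set the difference between the groups against the spread between these pools.

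Red cells carry oxygen in haemoglobin, a tetramer of alpha-type and beta-type globin chains, each holding a heme. In frogs the first red cells arise from the ventral mesoderm of the embryo (the ventral blood island), and the larval globins that they make are replaced by adult globins at metamorphosis. Gata1 is the transcription factor that red cell precursors depend on, Alas2 is the red cell form of the enzyme that starts heme synthesis, Epor is the receptor of erythropoietin, the hormone that keeps red cell precursors alive, and Epb42 is protein 4.2, which in mammals ties the anion exchanger of the red cell membrane to its skeleton.

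The libraries held 13597538 to 22225123 counts, of which 26.4 to 40.7% were assigned to rRNA genes, with no separation of the groups in either measure. Of 21 epidermal marker rows tested, 15 were called higher in Xenobots, and of 19 skeletal muscle rows tested, 19 were called lower, which matches the ectodermal label. Over all tested genes, 5.75% were called higher and 20.5% lower. Levels are given below as CPM, counts scaled to a common library size with TMM factors. Because transcript lengths were not used, levels were not compared between genes.

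The globin and red cell genes that could be tested were lower in Xenobots. Of the 16 members, 11 passed the filter on low values, and all 11 were called lower with 0 called higher, where a call needs a log2 fold change beyond 2 together with a limma-voom adjusted p under 0.05. Over all 26752 genes tested, 20.5% were called lower and 5.75% higher. The median log2 fold change of the 11 was -6.46, and that of all tested genes was -0.07. Setting hba2.L and hbg2.L, with under 1 summed Xenobot count, to their bounds left the median of the 11 unchanged. The median row, epb42.L, had 1 Xenobot count and was not set to a bound. Every tested member but epor.L passed the filter through the Embryo pools alone, so for these only the lower direction was open. The 11 are thus not a sample of all members, and their share called lower is a description only. Among all 16 members, 14 had every Xenobot pool below every Embryo pool, and hba1.L and hbg1.L were the exceptions. This pattern was found in 38.9% of all tested genes, a set that leaves out the members that did not pass the filter. In such bulk RNA, fewer red cells and less RNA per red cell cannot be told apart.

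**Figure D1:**
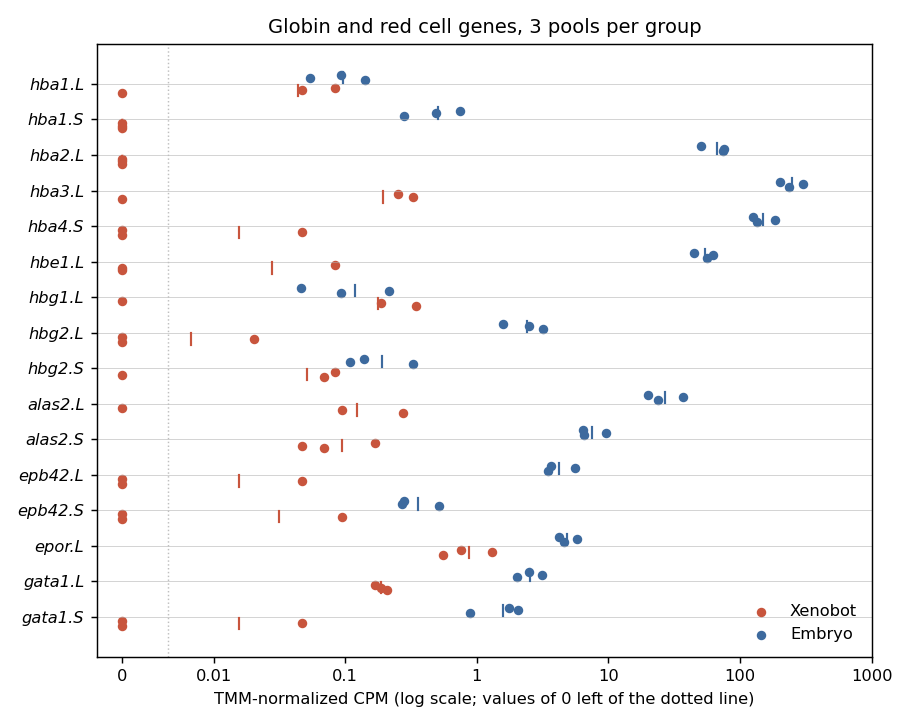
TMM-normalized CPM (log scale, with values of 0 placed left of the dotted line) of the 16 members in 3 Xenobot and 3 Embryo pools. Points are pools and short vertical bars are means. The groups overlap in hba1.L and hbg1.L and are apart in the other 14 rows.

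Taken over all 9 globin rows, the Xenobot pools held 6, 13.43 and 6 counts and the Embryo pools 10847.18, 11604.57 and 9090.68. As a share of each library this was 0.385, 0.661 and 0.441 CPM of the unscaled library total in Xenobots (0.496 ± 0.146, SD, n = 3) and 618.7, 615.6 and 409.0 in embryos (548 ± 120, SD, n = 3). The groups did not overlap, which gave p = 0.1 in a two-sided exact permutation test, the smallest value that 3 against 3 pools allow. In the mean, these rows made up 0.0548% of the counted embryo RNA. On the TMM scale the summed globin level of the 3 Xenobot pools was 0.0794, 0.121 and 0.0970% of the embryo mean.

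The members with the most counts in embryos, hba3.L, hba4.S and hba2.L, were alpha-type globins. For hba3.L, an alpha globin gene that RefSeq also lists as Ta-globin, the Xenobot pools held 0, 7 and 3 counts and the Embryo pools 5079.21, 5595.24 and 4297.68. In CPM this was 0, 0.33 and 0.25 against 237.5, 302.7 and 199.9. Each Embryo pool was above each Xenobot pool by a wide margin, with a log2 fold change of -10.60 (SE 0.74, limma-voom adjusted p = 1.83e-06). The ratio of the summed counts, scaled for depth, was 1165 (exact 95% interval 633 to 2430). This interval and those below cover counting error only. With few or no Xenobot counts, such log2 fold changes and SEs rest partly on a small value that voom adds to each count.

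For hba4.S, an alpha globin gene on the S chromosome, 0, 1 and 0 counts were found in Xenobots and 2888.78, 3412.75 and 2684.28 in embryos. The embryo level was 148 ± 32.0 CPM (SD, n = 3), and the log2 fold change was -11.61 (SE 0.58, limma-voom adjusted p = 4.63e-07). With a single Xenobot count the ratio was 6992 and its interval very wide, from 1255 to 276186. Another alpha globin gene, hba2.L, had no count in any Xenobot pool and 1599.09, 1391.58 and 1085.86 counts in the Embryo pools. Against a floor of 3 counts summed over the Xenobot pools, hba2.L was at least 1057-fold lower in Xenobots (66.9 ± 14.2 CPM in embryos, SD, n = 3, limma-voom adjusted p = 6.6e-07).

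Of the beta-type globins, hbe1.L and hbg2.L were called lower. hbe1.L, which carries the name of the embryonic beta-type chain of mammals, had 0, 0 and 1 counts in Xenobots and 1194.14, 1143 and 966.88 in embryos. Its embryo level was 54.2 ± 8.55 CPM (SD, n = 3), with a log2 fold change of -10.17 (SE 0.60, limma-voom adjusted p = 7.97e-07) and a count ratio of 2571 (461 to 101568). hbg2.L had 0, 0.43 and 0 estimated counts in Xenobots, which is below 1 read, and 67.96, 46 and 33.98 in embryos. It was at least 38.4-fold lower in Xenobots against the same floor (limma-voom adjusted p = 6.08e-06).

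The 4 globin rows that did not pass the filter had few counts in either group. hba1.S had 0 counts in each Xenobot pool and 6, 9 and 16 in the Embryo pools, so that it was at least 8.04-fold lower in Xenobots. hbg2.S had 1, 0 and 1 counts against 7, 2 and 3, a ratio of 4.67 (1.04 to 42.9). hba1 and hbb1 are the names of alpha and beta globins of the adult frog, and hbb1 is listed by RefSeq as a synonym of hbg1.L. hba1.L had 0, 1 and 1 counts in Xenobots and 3, 1 and 2 in embryos, and hbg1.L had 5, 4 and 0 against 2, 4 and 1. Neither separated the groups, and the ratios of embryo to Xenobot counts were 2.33 (0.417 to 23.6) and 0.605 (0.192 to 1.83), so a difference in these genes was not detectable at this depth.

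Globin genes form a family of related copies, and RSEM divides a read that fits several rows. How many reads were divided was not measured, but many of these counts are not whole. The split between single globin rows is uncertain. The sum over the 9 rows does not depend on how reads were divided among them. It can still depend on reads divided with related rows outside the 9, such as hbd.S.

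Among the genes of heme synthesis, alas2 was the member. alas2.L had 4, 2 and 0 counts in Xenobots and 512, 678.1 and 431.54 in embryos, or 0.27, 0.09 and 0 CPM against 23.9, 36.7 and 20.1. The groups were far apart, with a log2 fold change of -7.82 (SE 0.82, limma-voom adjusted p = 1.91e-05) and a ratio of 210 (96.4 to 574). The S copy had 1, 1 and 2 counts against 140, 175.9 and 137.46, and alas2.S fell by 5.99 on the log2 scale (SE 0.53, limma-voom adjusted p = 6.88e-06).

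The transcription factor gata1 was also lower. gata1.L had 3, 4 and 2 counts in Xenobots and 43, 58 and 54 in embryos, or 0.21, 0.19 and 0.17 CPM against 2.01, 3.14 and 2.51. Its log2 fold change was -3.51 (SE 0.41, limma-voom adjusted p = 3.95e-05), a ratio of 13.4 (6.88 to 29.9). gata1.S had 0, 1 and 0 counts against 19, 38 and 38, with a log2 fold change of -4.99 (SE 0.55, limma-voom adjusted p = 2.78e-05). For both copies the lowest Embryo pool lay above the highest Xenobot pool, although the embryo level was low, at 2.55 ± 0.565 CPM for gata1.L and 1.57 ± 0.608 CPM for gata1.S (SD, n = 3).

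Of the members, the erythropoietin receptor kept the highest share of its embryo level in the summed Xenobot counts among those tested. epor.L had 8, 28 and 9 counts in Xenobots and 99, 107 and 90 in embryos, or 0.55, 1.32 and 0.76 CPM against 4.63, 5.79 and 4.19. Xenobot pool 2 was the highest of the Xenobot pools and was still below each Embryo pool. The log2 fold change was -2.44 (SE 0.35, limma-voom adjusted p = 1.6e-04), a ratio of 5.12 (3.73 to 7.17). When the test was made against a log2 fold change of 2 rather than of 0, epor.L no longer passed (limma treat adjusted p = 0.536), and its value in the deposited adjusted table was -1.82.

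For the membrane protein gene epb42, the L copy had 0, 1 and 0 counts in Xenobots and 74, 103 and 79 in embryos. epb42.L had a log2 fold change of -6.46 (SE 0.50, limma-voom adjusted p = 3.05e-06) and 4.24 ± 1.16 CPM in embryos (SD, n = 3). The S copy did not pass the filter and had 0, 2 and 0 counts against 11, 5 and 6, a ratio of 8.56 (2.10 to 75.1).

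In the embryos, the L copy gave most of the counts of alas2, epb42, gata1 and hbg2. The share of L in L plus S was 77.9 ± 1.86% for alas2, 91.8 ± 4.27% for epb42, 62.8 ± 5.72% for gata1 and 92.8 ± 2.70% for hbg2 (SD, n = 3). For hba1 it was 18.1 ± 13.2%, on 6 counts of L and 31 of S. Reads that both copies share were divided by RSEM, so these shares are a description. The Xenobot counts were too few for a share.

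The tested members also differed among the 3 Embryo pools. On the TMM scale, 10 of the 11 were highest in Embryo pool 2, with hbg2.L highest in pool 1, while 8 were lowest in pool 3 and epb42.L, gata1.L and gata1.S were lowest in pool 1. On the scale of unscaled library totals, 8 were highest in pool 2, and hba2.L, hbe1.L and hbg2.L in pool 1. The 5 tested globins were all lowest in pool 3 on both scales, and on the TMM scale they stood there at 0.654 to 0.843 of their embryo means. The coefficient of variation over the Embryo pools ran from 0.158 for hbe1.L to 0.387 for gata1.S with a median of 0.221. For each of the 11 it lay above the median of the 500 tested genes nearest in mean level (median of these medians 0.111).

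**Figure D2:**
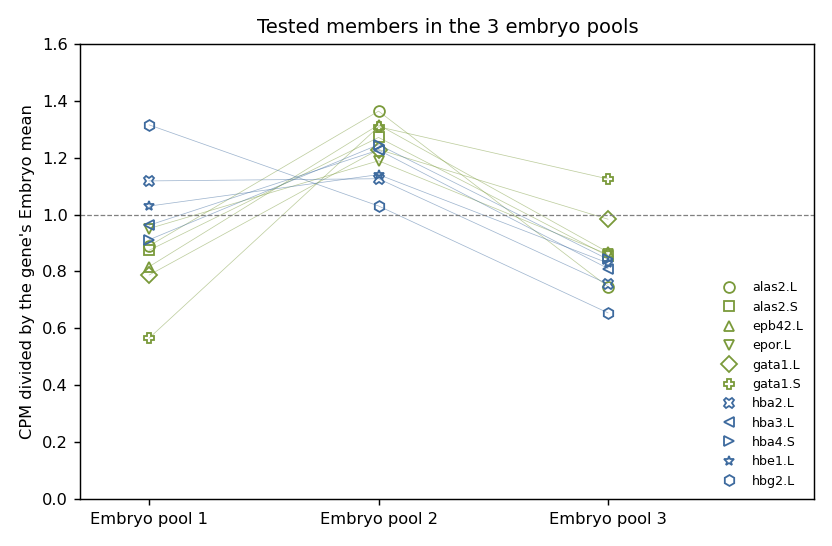
TMM-normalized CPM of the 11 tested members in each Embryo pool divided by the gene's mean over the 3 Embryo pools (dashed line at 1), with globins in blue and the other red cell genes in green. Most symbols are highest in pool 2, and the 5 globins are lowest in pool 3.

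The named globin rows lie in a cluster on each copy of chromosome 9_10, in positions of assembly Xenopus_laevis_v10.1. On 9_10L, hbe1.L spans 96019936 to 96021732, hbg2.L 96071872 to 96073691, hba2.L 96403437 to 96405283 and hba3.L 96433417 to 96437216, followed by hba1.L and hbg1.L. On 9_10S, hba4.S spans 83870626 to 83874239, followed by hba1.S and hbg2.S. The other red cell members lie elsewhere, gata1 and alas2 on 8L and 8S, epor.L on 3L, and epb42 far from the globins on each copy of 9_10.

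The neighbours of the globins in these stretches, chosen after their values were seen, fell into separate kinds. From luc7l.L to gtf3c1.L on 9_10L there were 24 genes with rows, among them 6 members and 9 rows with no gene name. Of these 9, 5 had at least 10 CPM in embryos (means of 13.0 to 103 CPM), and together they held 7 counts in Xenobots and 14713.63 in embryos. From luc7l.S to polr3k.S on 9_10S, 6 of 11 such rows had means of 17.8 to 45.1 CPM in embryos, with 11481.01 counts there and 0 in Xenobots. These rows were picked by their embryo level, which favours the lower direction in Xenobots, so the counts are a description only. The unnamed rows under 10 CPM in embryos went both ways. LOC108702420 had 0 CPM in Xenobots and 9.53 in embryos, LOC108701507 had 1.08 and 1.58, and LOC121398990 had 0.43 and 0.26.

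The named genes of other function between and beside the globins were not called. nprl3.L, whose human counterpart holds the main alpha globin enhancers in its introns, had 12.4, 12.5 and 16.8 CPM in Xenobots and 13.2, 13.7 and 11.3 in embryos. The pools of the groups overlapped, with a log2 fold change of 0.10 (SE 0.15, limma-voom adjusted p = 0.578). The sign of this value changed with some scalings, with 1 surrogate variable and in 1 leave-one-out fit. In the deposited adjusted values nprl3.L was at 0.40 (limma adjusted p = 0.0275), under the threshold of 2. rhbdf1.L, also within the 9_10L stretch, had 24.2 CPM in Xenobots and 8.47 in embryos, for a log2 fold change of 1.49, under the threshold of 2.

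**Figure D3:**
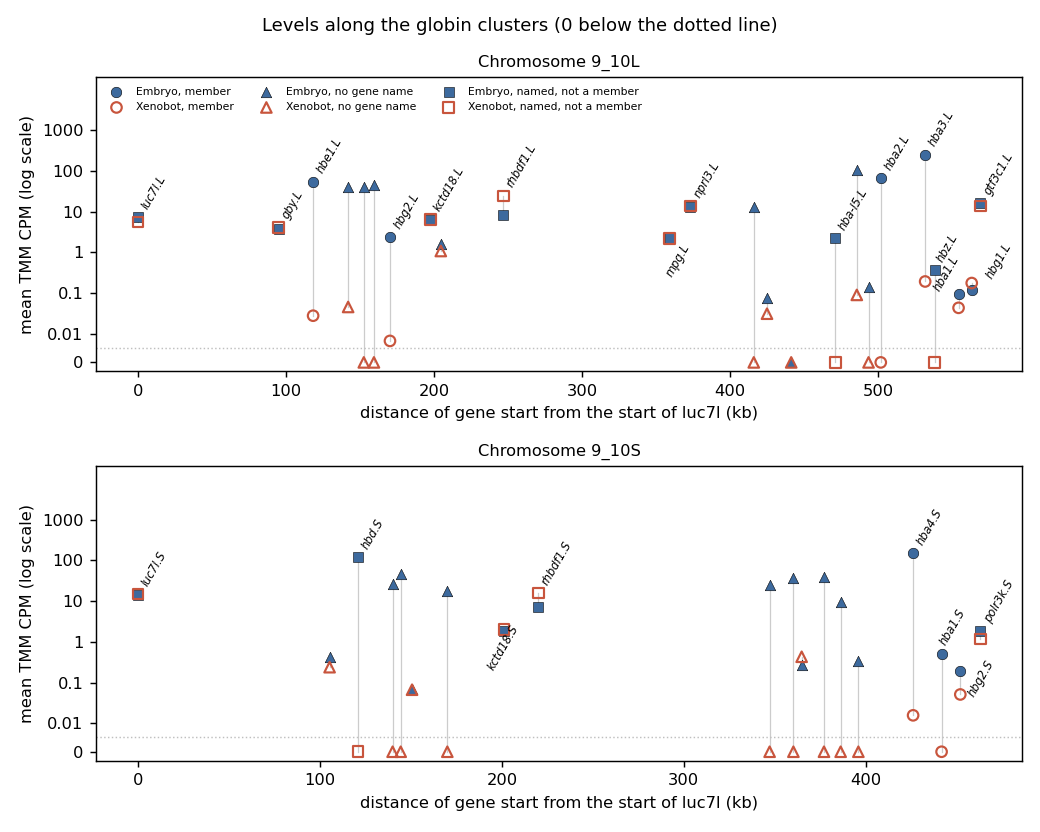
Mean TMM-normalized CPM over 3 Embryo pools (filled) and 3 Xenobot pools (open) of each gene with a row along the globin stretches of 9_10L and 9_10S, by the distance of the gene start from that of luc7l (kb). The vertical axis is a log scale with 0 below the dotted line. The 5 tested members and many rows with no gene name are higher in embryos and near or at 0 in Xenobots, the 4 untested members are low in both groups, whereas luc7l, kctd18, mpg, nprl3 and gtf3c1 are close in both groups.

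Globin-like proteins outside the rule gave mixed values. hbd.S, a haemoglobin gene of the 9_10S cluster whose symbol has no number, had 0 counts in each Xenobot pool and 2532.86, 2724 and 1997.12 in the Embryo pools, so that in Xenobots it was at least 1881-fold lower. The copies of cytoglobin, a globin of many tissues, were called lower, with log2 fold changes of -3.63 for cygb.S and -2.82 for cygb.L. The call of cygb.L was lost in the test against a log2 fold change of 2 (limma treat adjusted p = 0.0938) and in the deposited adjusted table (-1.78). The globin gene gby.L had 2.61, 5.92 and 3.78 CPM in Xenobots against 4.02, 2.98 and 4.47, with a log2 fold change of 0.11 (SE 0.30, limma-voom adjusted p = 0.759) whose sign changed under some settings. In the deposited adjusted values gby.L was at 0.86 (limma adjusted p = 0.00954), under the threshold of 2. In all, 3 of the 5 tested rows of the list were called lower and 0 higher, beside 20.5% and 5.75% of all tested genes. hba-l5.L, which lies in the 9_10L stretch, is in neither the rule nor this list and was picked out after its values were seen. It had 0 counts in each Xenobot pool and 57.14, 41.89 and 36.71 in the Embryo pools, and was called lower (limma-voom adjusted p = 2.35e-06).

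Without the member alas2, which was left out of this list, the enzymes of heme synthesis were not called in either direction in 11 of 11 tested rows. Every cell needs heme synthesis, and the median log2 fold change of the list was -0.19. Over all tested genes, 20.5% were called lower and 5.75% higher. alas1, the form of the first enzyme used outside red cells, had 45.9, 49.7 and 48.5 CPM in Xenobots and 25.1, 25.6 and 28.2 in embryos for its S copy. The groups did not overlap, and alas1.S had a log2 fold change of 0.87 (SE 0.10, limma-voom adjusted p = 3.26e-05), below the fold threshold. Genes of heme export, breakdown and binding were called lower in 1 of 17 tested rows, hebp2.L, a heme-binding protein gene (log2 fold change -2.21). hebp2.L did not pass the test against a log2 fold change of 2 (limma treat adjusted p = 1), and without Xenobot replicate 2 its value was -1.87.

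Of the iron genes, 2 of 18 tested rows were called lower, 1 was called higher and the median log2 fold change was 0.27. The shares over all tested genes were 20.5% lower and 5.75% higher. Both lower rows were transferrin, the iron carrier of the blood plasma, which the liver makes. tf.S had 7, 4 and 2 counts in Xenobots and 1148, 859 and 1088 in embryos (log2 fold change -7.48), and tf.L fell by 4.30. The row called higher was slc25a37.S, mitoferrin, which in vertebrate red cells brings iron into mitochondria for heme synthesis. slc25a37.S had 333.99, 403.94 and 241 counts in Xenobots and 77.02, 76.97 and 85.92 in embryos, or 20.7 ± 2.04 against 3.92 ± 0.289 CPM (SD, n = 3), for a log2 fold change of 2.39 (SE 0.15, limma-voom adjusted p = 1.22e-06). The groups were well apart, but the test against a log2 fold change of 2 was not passed (limma treat adjusted p = 0.0849). The L copy, slc25a37.L, was at 10.5 CPM in Xenobots and 9.49 in embryos and was not called.

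The transferrin receptor tfrc.L, through which cells take up iron, was at 28.3 CPM in Xenobots and 48.9 in embryos, for a log2 fold change of -0.79 that was not called. slc40a1.S, ferroportin, the iron exporter, was at 295.9 against 91.0 CPM, for a log2 fold change of 1.70 that lay under the threshold.

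Genes of the red cell membrane and its skeleton were called lower in 17 of 22 tested rows and higher in 0. Over all tested genes 20.5% were called lower and 5.75% higher, and the median log2 fold change of this list was -3.57. The summed level of the 22 rows in the 3 Xenobot pools was 53.7, 52.0 and 47.7% of the embryo mean. The lowest were dmtn.L (dematin, log2 fold change -6.94), add2.L (beta adducin, -6.63) and sptb.L (beta spectrin, -6.03). In mammals these proteins hold the spectrin and actin mesh of the red cell together, and they also occur in nerve and muscle. rhag.L, the Rh-associated glycoprotein of the red cell surface, had 2, 2 and 0 counts in Xenobots and 74, 109 and 98 in embryos (log2 fold change -5.57).

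The anion exchanger slc4a1, the main membrane protein of mammalian red cells, did not follow the members. slc4a1.S had 123.6, 122.3 and 113.4 CPM in Xenobots and 31.2, 43.6 and 34.7 in embryos, for a log2 fold change of 1.73 (SE 0.13, limma-voom adjusted p = 2.51e-06), and was not called at the fold threshold. slc4a1.L had 32.7, 30.5 and 30.1 CPM against 33.6, 40.7 and 30.2, with a log2 fold change of -0.15 (SE 0.13, limma-voom adjusted p = 0.313). The S copy was thus higher in every Xenobot pool, and the L copy overlapped between the groups. In mammals the same gene is also used by acid-secreting cells of the kidney.

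Of the transcription factors of blood formation beside gata1, 8 of 32 tested rows were called lower and 0 higher. This was near the 20.5% of all tested genes called lower, while 5.75% of all were called higher. The median log2 fold change of the list was -0.63. The lowest were tal1.S (-6.11), gfi1.L (-5.73) and cbfa2t3.L (-5.33), followed in this description by lmo2.S (-5.28). Tal1 and Lmo2 work in 1 complex with Gata1 in red cell precursors, and Gfi1 and Cbfa2t3 are repressors of the blood lineages. The most abundant row not called, klf13.L, was at 92.2 CPM in Xenobots and 67.3 in embryos. tal1.S had 0, 1 and 1 counts in Xenobots and 88, 112 and 89 in embryos. gata2.L, a factor of blood stem cells that the early frog epidermis also expresses, had 12.8, 6.55 and 7.47 CPM in Xenobots and 10.2, 14.0 and 11.4 in embryos. The groups overlapped in gata2.L, and its log2 fold change of -0.48 was not called (SE 0.23, limma-voom adjusted p = 0.0956).

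Signalling genes beside epor were called in neither direction in 20 tested rows, with a median log2 fold change of 0.47. The most abundant of them, igf1r.L, the receptor of an insulin-like growth factor, was at 30.8 CPM in Xenobots and 52.9 in embryos. The hormone gene itself was too low to test, with 1 count in Xenobots and 3 in embryos for epo.L and 1 and 5 for epo.S. Enzymes and clearance factors of red cells, many of them used by other cells, had 2 of 29 tested rows called lower and 0 higher, with a median log2 fold change of 0.23. These were aldoa.L, an enzyme of glycolysis that is abundant in muscle (-2.85), and prdx2.L, a peroxide-removing enzyme (-2.67, limma treat adjusted p = 0.0703). ucp2.L, a mitochondrial carrier gene and the most abundant row not called, was at 205.7 CPM in Xenobots and 152.4 in embryos. Over the 8 lists around the members, 33 of 150 tested rows were called lower and 1 higher. For all tested genes the shares were 20.5% and 5.75%. The lists differed widely. Heme synthesis had 0 of 11 rows called lower and signalling 0 of 20, while the membrane skeleton had 17 of 22.

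**Figure D4:**
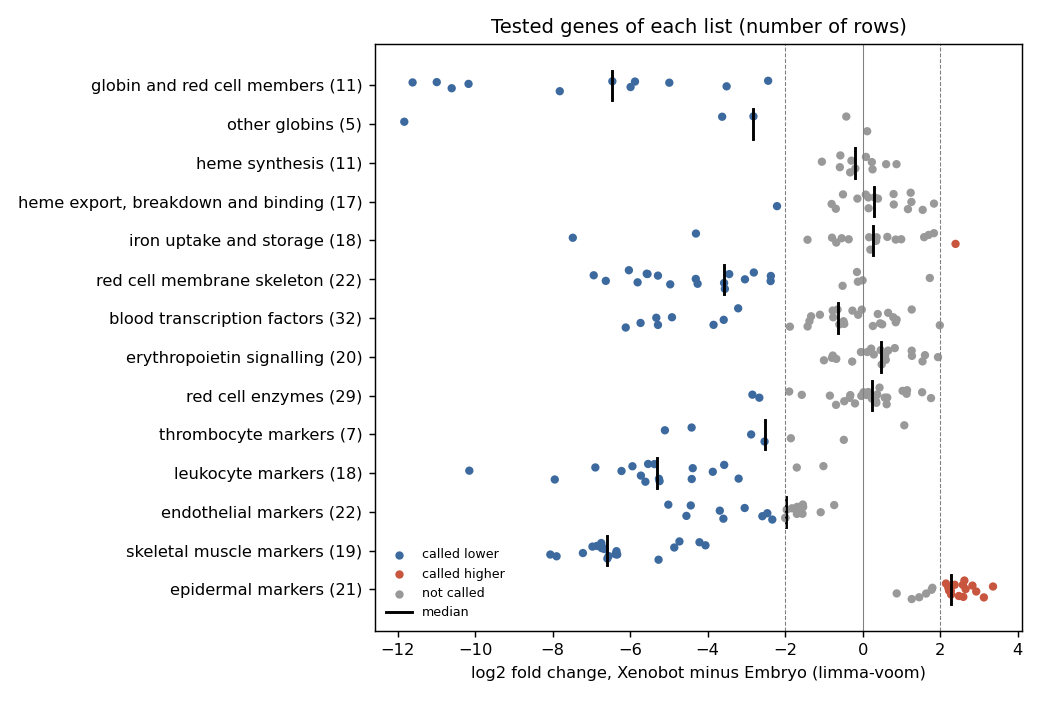
log2 fold changes (Xenobot minus Embryo, limma-voom) of the tested rows of the members and of 13 other gene lists, with the number of rows in brackets. Each point is a row, black bars are medians and dashed lines mark the fold threshold of 2. All 11 members lie below -2, and the heme synthesis rows, which leave out alas2, lie between the dashed lines.

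Some markers of other cells that intact embryos hold were lower as well. Leukocyte markers were called lower in 16 of 18 tested rows and endothelial markers in 9 of 22, with median log2 fold changes of -5.32 and -1.98. Over all tested genes, 20.5% were called lower. Thrombocyte markers were called lower in 4 of 7, while their summed level in the 3 Xenobot pools was 129, 124 and 117% of the embryo mean. The summed level of the leukocyte list in the 3 Xenobot pools was 2.67, 2.41 and 3.21% of the embryo mean (4.65 to 6.21 CPM in Xenobots, 178.1 to 206.3 in embryos), with 4 of 25 rows at 0 in every Xenobot pool. That of the skeletal muscle list was 1.46, 2.97 and 0.284% (31.1 to 325.4 CPM in Xenobots, 9078 to 14313 in embryos), and that of the endothelial list 29.9, 37.9 and 8.34% (24.1 to 109 CPM in Xenobots, 281 to 293 in embryos). The part of these cell types in the results for the members was not tested.

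Beside these, the summed globin level was the lowest of the groups plotted in each Xenobot pool, at 0.121% or less of the embryo mean. Muscle and endothelial markers were lowest in Xenobot pool 3. The globin rows held 6 counts in Xenobot pool 1 and 6 in pool 3, so library scaling alone set the order of these pools in globin level. In pool 1, 5 of the counts were of hbg1.L, which did not separate the groups.

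**Figure D5:**
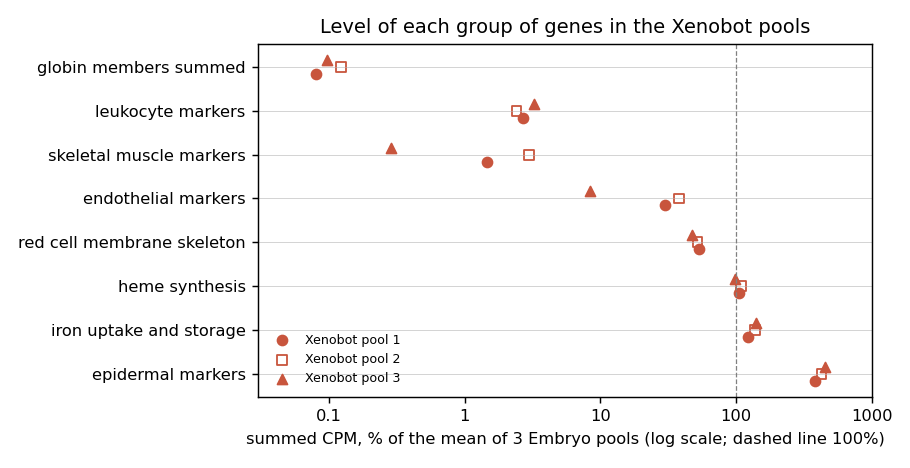
Summed CPM of each group of genes in the 3 Xenobot pools as a percentage of the mean of the 3 Embryo pools (log scale, dashed line at 100%). The globins lie at 0.0794 to 0.121%, the leukocyte markers at 2.41 to 3.21% and the red cell membrane skeleton list at 47.7 to 53.7%. The heme synthesis genes without alas2 lie near 100% and the epidermal markers at 381 to 451%.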

How the data were processed

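Stranded, single-end total RNA libraries were made by the authors from 3 Xenobot pools and 3 Embryo pools after removal of rRNA. Reads trimmed in fastp were mapped with STAR against version 10.1 of the frog genome from NCBI. The authors deposited expected counts per gene from RSEM, which need not be whole. A second deposited table holds log2 CPM values adjusted for surrogate variables, and it was used for an alternative only. No column of other samples was present (0). Groups came from the sample titles.

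Genes with CPM over 0.6 in at least 3 libraries were kept (26752). Counts were scaled with TMM factors (edgeR 4.0.16) and tested two-sided with voom and limma 3.58.1 (R 4.3.3). Group was the only term, and p-values were adjusted by Benjamini-Hochberg over all genes tested. On simulated data with 200 changed genes among 26752, 200 were recovered with 1 false call. The changes were large and planted only in genes with many counts, and all genes were given the same dispersion. Recovery under other settings was not tested. Count ratios have exact (Clopper-Pearson) 95% intervals, and groups under 1 count were set to a floor of 3 counts. Alternatives used edgeR's quasi-likelihood test and DESeq2 1.42.0 on rounded counts, limma treat, other scalings, other filters, summed homeologs, 1 surrogate variable (sva 3.50.0), a replicate block and each library left out.

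The members and gene lists were chosen with earlier results of these data known. Members called, or at 10 CPM or more in a group, were described singly. From each list, rows called higher, the 3 lowest of those called lower and the most abundant row not called were named, except for 1 row that is not reported here. nprl3.L, rhbdf1.L, slc4a1.L, tfrc.L, rhag.L, lmo2.S, slc25a37.L and gata2.L were named after their values were seen. Gene positions and synonyms came from RefSeq. Sequences and transcript lengths were not used here.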

Additional observations from a re-analysis of the deposited data

How the results depend on the processing

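The members were called lower in 9 to 13 rows and higher in 0 under every alternative run, with differing numbers tested. With homeologs summed it was 9 of 9 tested (4063 of 20174 among all genes), and at a mean CPM above 1 it was 10 of 10 (4496 of 24537). With no filter it was 13 of 16 (6966 of 36826). With limma treat (3913 of 26752 among all genes) and in the deposited adjusted values (5099 of 28009) it was 10 of 11. Of 208 values of tested members under the alternatives, 206 kept their call and 2 did not, both for epor.L (given above). The median log2 fold change of the members was -7.66 with edgeR's quasi-likelihood test, -7.70 with DESeq2, -5.42 with no filter, -7.16 at a mean CPM above 1, -6.98 in the deposited adjusted values and -7.18 with homeologs summed. The lists around the members had 19 rows called lower with homeologs summed, where fewer rows were tested (92). Rows called higher numbered 0 with limma treat and with homeologs summed, 3 with 1 surrogate variable and in the deposited adjusted values, and 1 to 3 with a library left out. The globin share in embryos was 852.8 CPM of the unscaled total without rRNA genes. Values near 0 that changed sign were gby.L (-0.0441 with total-count scaling, leave-one-out -0.292 to 0.396), nprl3.L (-0.00734 with upper-quartile scaling, -0.0237 with total-count scaling, -0.0059 with 1 surrogate variable, leave-one-out -0.0219 to 0.176) and slc25a37.L (-0.0381 in the deposited adjusted values). Where no construction of the alternative shows it, the cause was not tested. Of the 5 tested globins, 4 were highest in Embryo pool 2 with TMM factors and 2 with total counts. Total-count scaling moved the median of all genes from -0.07 to -0.21.

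The deviations of same-numbered pools correlated weakly (0.0614, 0.0897 and 0.0343), with 0.0311 the highest among other pairs. By this measure 6 of 6 libraries correlated best with their own number. The deviations were taken from the mean of each group, and each pair was counted from both sides, so these 6 are not separate observations. Whether same-numbered pools were made together was not tested. With the replicate block, 11 members were called lower and 0 higher (median -6.48), and the lists had 33 lower and 1 higher. Low counts limit the 5 members that were not tested.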

Other observations

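The cells of the thrombocyte list share gata1 with red cells. Most of its summed level in Xenobots was itgb3.L, an integrin chain that other cells also use, with 60.2 CPM in Xenobots and 28.6 in embryos (log2 fold change 1.07). plek.L (-5.10), gp5.L (-4.42), gp1bb.L (-2.88) and f13a1.L (-2.53) were called lower.

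Within the globin stretches, both copies of rhbdf1, a membrane protein gene that lies beside the alpha globins in vertebrates, were higher in Xenobots without reaching the fold threshold. rhbdf1.L had a log2 fold change of 1.49 (limma-voom adjusted p = 8.02e-05) and rhbdf1.S of 1.07 (limma-voom adjusted p = 1.6e-04). These genes were chosen after their values were seen.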
